A study of Mus musculus with 8 samples.

Results

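The p53 response was followed in whole mouse esophagus through 10 growth arrest and stress genes, namely Cdkn1a, Gadd45a, Gadd45b, Gadd45g, Btg2, Mdm2, Ccng1, Sesn1, Sesn2 and Trp53inp1. They were picked by symbol from the 32849 gene symbols with deposited counts, and all 10 were among the 14864 genes tested. The RNA came from frozen esophagi of healthy mice, 4 lacking monoacylglycerol lipase throughout the body (MGL KO) and 4 of the WT genotype. The knockout colony was kept by the study's group and WT animals were littermates, neither group received an agent, and the study's methods give young adults of both sexes without tying sex or age to single libraries. The labels name 1 mouse esophagus per library, without saying that litters or dissection days differed, so the p-values measure the spread between these samples. Cdkn1a and Gadd45g stand in the authors' own list of differing genes, which was drawn from the same libraries. The differences between MGL KO and WT are therefore given as a description of these 8 libraries, and no measure independent of that choice was at hand.

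p53 is a transcription factor that is held low by the ubiquitin ligase MDM2 and is stabilized when DNA is damaged or the cell is stressed. It then turns on genes that halt the cell cycle, repair DNA, limit oxidants or start cell death, and it turns on Mdm2 as a brake on itself. Many of these genes, Cdkn1a and the GADD45 family among them, also answer to other signals such as growth factors, cytokines, glucocorticoids and muscle denervation, so their level is not a readout of p53 alone. In the esophagus, the squamous epithelium renews from dividing basal cells, whereas the muscle wall of the mouse is largely striated and its fibers do not divide.

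The deposited counts summed to between 13479069 and 17090152 per library. Mgll, the targeted gene, was at 12.6, 16.0, 13.1 and 13.2 normalized CPM in MGL KO replicates 1 to 4 and at 83.3, 66.6, 88.3 and 86.7 in WT replicates 1 to 4, in accordance with the labels of all 8 libraries. Normalized CPM are counts scaled to a common library size (CPM) and by trimmed mean of M values (TMM) factors. Defining genes of the labelled tissue were abundant, with Krt5 of basal squamous epithelium at 1257 normalized CPM or more and Acta1 of skeletal muscle at 14494 or more in every library. The makeup of the pieces varied: 14 skeletal muscle markers summed to between 41625 and 97581 normalized CPM in MGL KO and between 54574 and 84304 in WT, with MGL KO replicate 4 lowest and MGL KO replicate 2 highest. The sum of 12 markers of differentiated squamous epithelium was lowest in MGL KO replicate 2 (2248 normalized CPM) and ranged from 3399.9 to 16610.4 in WT. All 8 fibroblast markers had lower means in MGL KO (median log2 fold change -0.31, 2 with an unadjusted p under 0.05), as did all 5 tested of 9 immune markers (median -0.95, 3 with an unadjusted p under 0.05), and 0 of either list were called. Over all tested genes, 4.29% were lower in MGL KO with an unadjusted p under 0.05. Without WT replicate 1, the library with the most immune transcripts, the immune median was -0.37 with 2 of the 5 values above 0, and the fibroblast median was -0.16 without MGL KO replicate 2 and -0.57 without MGL KO replicate 3. The fibroblast sums were 1445 to 3369 normalized CPM in MGL KO and 2160 to 3256 in WT, and the part of both cell types in the values below was not tested. MGL KO replicate 4 held airway transcripts, 8 secretory markers summing to 11569 normalized CPM against at most 71.6 elsewhere, and Foxj1 of ciliated cells reaching 227.7 against at most 1.65. In bulk tissue, a loss of cells of one type and a lower RNA content per cell cannot be told apart. Y-linked transcripts were found at 185.6 to 223.7 normalized CPM, summed over 4 genes, in all libraries.

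Of the 10 genes, 0 had an adjusted p under 0.05 in edgeR's quasi-likelihood test, the test used throughout, where 0.0471% of all tested genes were called, 0.0202% as higher and 0.0269% as lower in MGL KO. An unadjusted p under 0.05 was reached by 5 of them, 4 higher and 1 lower in MGL KO, beside 8.65% of all tested genes (4.35% higher and 4.29% lower). DESeq2 called 2, Cdkn1a and Gadd45g, the exact test of edgeR called 1, Gadd45g, and limma-voom with quality weights called 0. Over all genes, DESeq2 called 137 of 14646 and limma-voom 25 of 14864. The exact test called 64 of 14864 filtered genes and 42 of the 22721 genes with a count. All MGL KO libraries lay above all WT libraries for 4 of the 10 genes, Cdkn1a, Gadd45g, Mdm2 and Sesn2, and below for 0. Over all tested genes, the groups did not overlap for 6.02%, with MGL KO above for 2.72% and below for 3.3%. Because the comparison itself entered the choice of genes, nothing is read from these shares. The median log2 fold change (MGL KO minus WT) was 0.18 over the 10 genes and 0.02 over all tested genes, and 7 of the 10 values were above 0. The median of the 10 was 0.10, with 5 values above 0, without MGL KO replicate 2 and 0.35 without WT replicate 1.

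**Figure D1:**
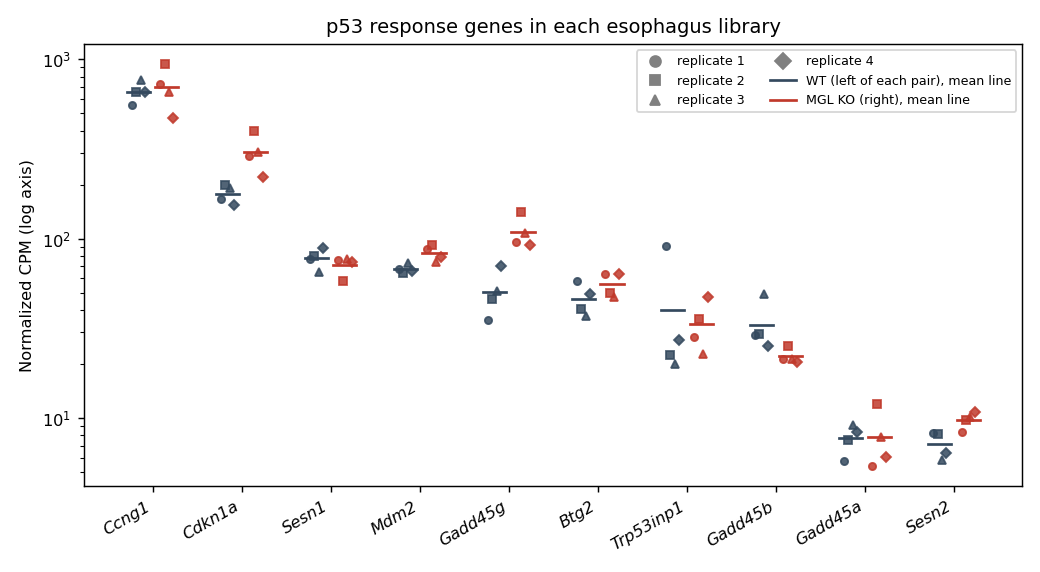
Normalized CPM (log axis) of the 10 genes in each library, with WT on the left and MGL KO on the right of each pair, 1 symbol per replicate and a line at the group mean. The MGL KO symbols of Cdkn1a (219.6 to 396) lie above the WT symbols (154 to 199), and the WT symbols of Trp53inp1 are pulled apart by replicate 1 at 91.5.

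Cdkn1a encodes p21, the inhibitor of cyclin-dependent kinases through which p53 halts cells before DNA replication. On GRCm39 it spans bases 29309936 to 29319701 of chromosome 17, on the forward strand. It was at 289.5, 396, 305 and 219.6 normalized CPM in MGL KO replicates 1 to 4 and at 167, 199, 192 and 154 in WT replicates 1 to 4. All MGL KO libraries were above all WT libraries, and the nearest pair was MGL KO replicate 4 and WT replicate 2. The means were 302 ± 72.5 (SD, n = 4) and 178 ± 20.8 (SD, n = 4), which are 1.70-fold apart, or 0.77 on the log2 scale with a standard error of 0.18 (adjusted p = 0.37). The value stayed between 0.61, without MGL KO replicate 2, and 0.89, without MGL KO replicate 4, when each library was left out in turn.

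Within MGL KO, Cdkn1a followed the same order of libraries as the skeletal muscle markers, lowest in replicate 4, then 1, 3 and 2. Gadd45g and the sum of 8 smooth muscle markers had this order too. In WT, Cdkn1a was highest in replicate 2, Gadd45g in replicate 4 and both muscle sums in replicate 3. With the mean of the skeletal muscle markers as a covariate, the log2 fold change of Cdkn1a was 0.79 with an adjusted p of 0.0458, past the threshold, while the number of calls over all genes went from 7 to 29. Of the skeletal muscle markers themselves, 7 of 14 had higher and 7 lower means in MGL KO.

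The stretch before the start of Cdkn1a is shown because it holds the one complete p53 element found in the promoter windows of these genes. A p53 element is a pair of 10-base units, called decamers here, separated by 0 to 13 bases. It was searched by its consensus, with no mismatch allowed, on both strands in the RefSeq windows of 250 bases before to 50 after each gene start. The 250 bases before the upstream start of Cdkn1a, chr17:29090729-29090978 on the forward strand of GRCm38.p6, follow with both decamers and the bases between them in capitals.
Cdkn1a: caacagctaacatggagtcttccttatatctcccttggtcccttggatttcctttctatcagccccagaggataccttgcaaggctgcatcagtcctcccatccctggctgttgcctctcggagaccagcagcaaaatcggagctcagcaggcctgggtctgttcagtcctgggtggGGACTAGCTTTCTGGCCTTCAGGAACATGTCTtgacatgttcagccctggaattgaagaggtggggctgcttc
The first decamer begins 73 and the second 51 bases before this start. The 10 bases right after the second decamer differ from the consensus only in their first base and are not marked. A full element was found in 24 of 32851 windows (0.0731%) and a single decamer in 8.36% of them. On GRCm39 the same element is at chr17:29309880-29309911, 56 bases before the GENCODE start of Cdkn1a and inside the locus of the antisense transcript Gm64878. A match describes the letters and not binding.

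Gadd45g, Gadd45a and Gadd45b encode small acidic nuclear proteins that bind PCNA, p21 and the kinase MAP3K4 and link stress to growth arrest and to p38 and JNK signaling. Gadd45a is the member best known as a p53 target, whereas Gadd45b is known for its answer to TGF-β and NF-κB and Gadd45g for its answer to cytokines. The 3 paralogs differed in direction. Gadd45g had the higher mean in MGL KO, Gadd45b the lower, and Gadd45a nearly the same in both groups.

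Gadd45g, on chromosome 13 of GRCm39 from 52000714 to 52002508, was at 95.9, 141, 107 and 92.1 normalized CPM in MGL KO replicates 1 to 4. In WT replicates 1 to 4 it was at 35.2, 45.8, 51.3 and 70.1. No library of one group reached the other, the closest being MGL KO replicate 4 and WT replicate 4. The means of 109 ± 22.4 and 50.6 ± 14.6 (SD, n = 4 each) were 2.16-fold apart, or 1.11 on the log2 scale with a standard error of 0.22 (adjusted p = 0.262). This was the largest difference of the 10 genes. It stayed between 0.96 and 1.31 with each library left out, and was 1.17 with an adjusted p of 0.0411 with the skeletal muscle covariate.

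Gadd45b, on chromosome 10 from 80764523 to 80768038, was at 21.3, 25.3, 21.3 and 20.5 normalized CPM in MGL KO replicates 1 to 4 and at 29.1, 29.4, 48.9 and 25.2 in WT. The groups overlapped by the margin of 1 library, since MGL KO replicate 2 was just above WT replicate 4. The log2 fold change was -0.59 (standard error 0.20, adjusted p = 0.509), and it was -0.33 without WT replicate 3, the highest library, so that this library carried much of its size. Gadd45a, on chromosome 6 from 67012070 to 67014441, was at 5.39, 12.0, 7.83 and 6.07 normalized CPM in MGL KO and at 5.75, 7.53, 9.14 and 8.34 in WT. MGL KO replicate 1 was the lowest and replicate 2 the highest of all libraries, and the WT values fell between them. The log2 difference of 0.02 ± 0.28 (standard error, adjusted p = 0.986) rests on 88 to 139 counts per library and was -0.25 without MGL KO replicate 2. It was also below 0 with library size alone (-0.05). Exons of Gadd45a share 990 bases with the antisense transcript E230016M11Rik, which was at 1.39 normalized CPM in MGL KO and 2.75 in WT. Exons of other genes of the set also share bases with opposite-strand transcripts, 504 and 249 for Cdkn1a (with Dino and Gm64878), 898 for Btg2, 548 for Sesn1, 348 for Mdm2 and 114 for Ccng1. The use of strand in counting is not given in the sources used here, so reads of such partners cannot be told apart.

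The ratio of Gadd45g to Gadd45b within a library does not depend on the scaling between libraries. The ratio of their counts was 4.50, 5.59, 5.05 and 4.50 in MGL KO replicates 1 to 4 and 1.21, 1.56, 1.05 and 2.78 in WT, a pair chosen after the values were seen. The upstream stretches of both are shown for comparison, since each holds the E-box CACGTG, in capitals, and neither holds a p53 decamer. They are chr13:51846425-51846674 for Gadd45g and chr10:80929841-80930090 for Gadd45b, both on the forward strand of GRCm38.p6.
Gadd45g: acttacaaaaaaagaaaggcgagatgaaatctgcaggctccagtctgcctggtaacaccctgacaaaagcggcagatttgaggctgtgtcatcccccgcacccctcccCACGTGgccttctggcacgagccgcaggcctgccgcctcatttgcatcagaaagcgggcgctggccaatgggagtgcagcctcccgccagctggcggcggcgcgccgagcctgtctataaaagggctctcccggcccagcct
Gadd45b: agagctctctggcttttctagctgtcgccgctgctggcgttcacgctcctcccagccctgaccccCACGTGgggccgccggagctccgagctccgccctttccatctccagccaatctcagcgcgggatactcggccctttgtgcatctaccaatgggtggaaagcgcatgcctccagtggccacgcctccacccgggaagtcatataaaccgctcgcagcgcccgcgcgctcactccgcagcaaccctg
The E-box, bound by clock and MYC family factors, was found in 7.15% of all windows. The window of Gadd45a held a p53 decamer that begins 40 bases before the start, GGGCTAGCCC, and no E-box.

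**Figure D2:**
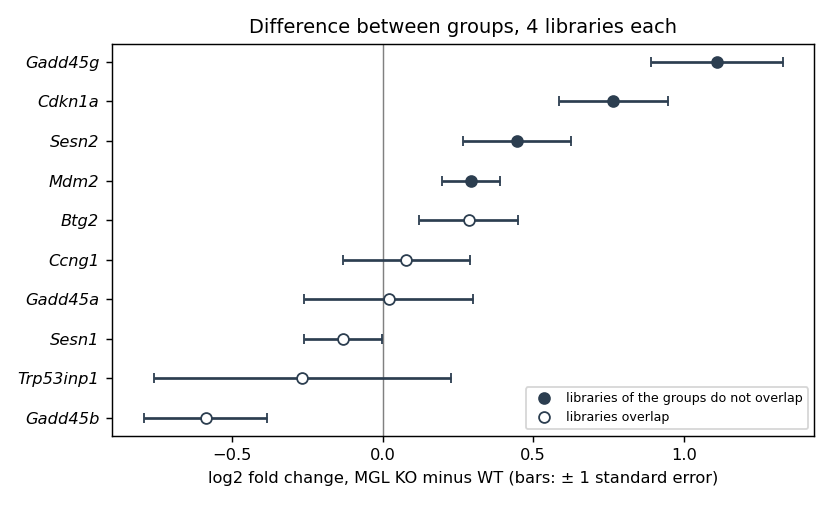
Log2 fold change of each of the 10 genes (MGL KO minus WT) with bars of 1 standard error, 4 libraries per group. Filled points mark genes whose libraries did not overlap between groups: Gadd45g (1.11), Cdkn1a (0.77), Sesn2 (0.45) and Mdm2 (0.29).

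Mdm2 and Ccng1 act on p53 itself. Mdm2, the ubiquitin ligase that p53 induces against itself, lies on chromosome 10 of GRCm39 from 117524780 to 117546730. It was at 87.9, 92.0, 73.7 and 79.3 normalized CPM in MGL KO replicates 1 to 4 and at 67.8, 64.6, 73.5 and 65.6 in WT. The groups did not overlap, but MGL KO replicate 3 was within 1 CPM of WT replicate 3. The log2 fold change was 0.29 (standard error 0.10, adjusted p = 0.503), and 0.25 to 0.35 with each library left out. The RefSeq window of Mdm2 held the decamer GAACTTGCCT, which begins 186 bases before the start. The internal promoter of Mdm2, through which p53 is known to act, is not part of this window.

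Ccng1, for cyclin G1, which brings a phosphatase to MDM2, lies on chromosome 11 from 40639377 to 40646148. It was at 727, 938, 653 and 468 normalized CPM in MGL KO and 557, 654, 769.7 and 658 in WT. MGL KO replicates 2 and 4 were the highest and the lowest of all libraries, as they were for the skeletal muscle markers. The log2 fold change was 0.08 (standard error 0.21, adjusted p = 0.921) and turned to -0.09 without MGL KO replicate 2. The counts of Cdkn1a relative to Ccng1 were 0.398, 0.422, 0.467 and 0.469 in MGL KO replicates 1 to 4 and 0.300, 0.304, 0.249 and 0.234 in WT. This ratio, also chosen after the values were seen, had a mean of 0.439 ± 0.0347 in MGL KO and 0.272 ± 0.0353 in WT (SD, n = 4 each), and its groups did not overlap.

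Btg2, Sesn1, Sesn2 and Trp53inp1 complete the set. Btg2 encodes an antiproliferative adaptor of the CCR4-NOT deadenylase and is both a p53 target and an early response gene. It was at 63.7, 50.0, 47.5 and 63.1 normalized CPM in MGL KO and 57.8, 40.4, 36.9 and 48.9 in WT. The groups overlapped, and the log2 fold change was 0.29 (standard error 0.16, adjusted p = 0.653). Its window held a cAMP response element, TGACGTCA, which begins 166 bases before the start and was found in 1.79% of all windows.

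Sestrins 1 and 2, encoded by Sesn1 and Sesn2, restrain mTORC1 and protect against oxidants. Sesn1 is known as the sestrin that p53 and FOXO factors induce, and Sesn2 as the one that also answers to ATF4 and NRF2. Sesn2 was at 8.33, 9.75, 10.2 and 10.7 normalized CPM in MGL KO and 8.26, 8.10, 5.85 and 6.39 in WT, from 89 to 191 counts per library. The groups did not overlap, MGL KO replicate 1 and WT replicate 1 being nearly level, and the log2 fold change was 0.45 (standard error 0.18, adjusted p = 0.55). Sesn1 was at 76.2, 57.8, 76.5 and 73.9 normalized CPM in MGL KO and 77.3, 80.2, 65.1 and 88.8 in WT. Its groups overlapped, with a difference of -0.13 ± 0.13 in log2 (standard error, adjusted p = 0.773), which was -0.04 without MGL KO replicate 2 and -0.20 without WT replicate 3. Its lowest library was MGL KO replicate 2, where Cdkn1a, Gadd45a, Gadd45g, Mdm2 and Ccng1 were highest. In all, 5 of the 10 genes had their highest value in that library, which also had the most skeletal muscle and the least differentiated squamous epithelium. With the skeletal muscle covariate the log2 differences of the other 3 were 0.31 for Mdm2, 0.12 for Ccng1 and 0.08 for Gadd45a, and the part of squamous epithelium was not tested.

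Trp53inp1 encodes a nuclear cofactor that promotes p53-dependent arrest and cell death. It was at 28.2, 35.5, 22.6 and 47.5 normalized CPM in MGL KO and at 91.5, 22.3, 19.9 and 27.1 in WT. WT replicate 1 stood apart from the other WT libraries, which were at or below the level of most MGL KO libraries. The log2 fold change was -0.27 (standard error 0.49, adjusted p = 0.884), and it was 0.53 without WT replicate 1. The same library had the most immune transcripts. A list of 9 immune cell markers, 5 of them tested, summed to 300.7 normalized CPM there against 57.7 to 128 in the other WT and 63.2 to 96.3 in the MGL KO libraries. Epx of eosinophils had 0 counts in every library. The part of immune cells in the value of Trp53inp1 was not tested. No promoter window was listed for Trp53inp1 in the table used. On GRCm39 a full p53 element lies 1300 bases before its start, at chr4:11155112-11155132 within the locus of Gm69016, with the decamers in capitals.
Trp53inp1: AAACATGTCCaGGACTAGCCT
A search for complete p53 elements within 5 kb on either side of the start of each protein-coding gene found one in 659 of 21770 windows (3.03%), and among the 10 genes in 2, Cdkn1a and Trp53inp1. Every base of both decamers had to match the consensus, so an element with a mismatch would be missed near any of these genes.

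Levels were compared between genes per kilobase of merged exons, which take in all annotated transcripts of a gene. These were 6045 bases for Cdkn1a and 1177 for Gadd45g, and the transcripts in use were not determined. The order of these genes depends on that length. Before division by it, Cdkn1a (178 normalized CPM in WT and 302 in MGL KO) was above Gadd45g (50.6 and 109). In WT esophagi, Ccng1 was highest at 149.9 ± 19.8 CPM per kb (SD, n = 4), followed by Gadd45g at 43.0 ± 12.4, Cdkn1a at 29.4 ± 3.44 and Sesn1 at 15.4 ± 1.95. Then came Gadd45b at 11.2 ± 3.59, Mdm2 at 8.80 ± 0.52, Btg2 at 7.35 ± 1.49, Trp53inp1 at 5.47 ± 4.67, Gadd45a at 4.34 ± 0.82 and Sesn2 at 1.57 ± 0.27. The WT libraries of neighbours in this order did not overlap between Ccng1 and Gadd45g, between Cdkn1a and Sesn1, and between Gadd45a and Sesn2, and all other neighbours overlapped. In MGL KO esophagi, Gadd45g reached 92.7 ± 19.0 CPM per kb, so that its libraries overlapped with those of Ccng1 (158 ± 44.2) and no longer with those of Cdkn1a (50.0 ± 12.0). Gadd45b stood at 7.43 ± 0.73 CPM per kb there, below Mdm2 and Btg2 in mean level. Gadd45g was thus the GADD45 gene with the highest level in both genotypes.

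The other genes of the pathway were taken as whole lists by known role. Of 35 other p53 target genes, all tested, 0 were called by the quasi-likelihood test, DESeq2, the exact tests or limma-voom. In the quasi-likelihood test 3 had an unadjusted p under 0.05, beside 8.65% of all tested genes. The median log2 fold change was 0.05, with 20 values above and 15 below 0, and it ranged from -0.01 (without MGL KO replicate 2) to 0.09 (without WT replicate 3) with each library left out. Among the effectors of cell death, Bax was at 16.6 ± 0.80 normalized CPM in MGL KO and 18.5 ± 3.10 in WT, and Pmaip1, which encodes NOXA, differed by 0.74 ± 0.28 in log2 (standard error, adjusted p = 0.533). Among the DNA repair genes, Ddb2, which finds ultraviolet lesions, had the lowest value of the list, -0.76 ± 0.33 in log2 (standard error, adjusted p = 0.578). It was followed by Tap1 of antigen processing at -0.53 and Pml of nuclear bodies at -0.41, both highest in WT replicate 1 and at -0.0023 and -0.22 without it. Sfn, for the 14-3-3σ protein of epithelia, was at 0.54 with 227 ± 104 normalized CPM in MGL KO and 156 ± 56.4 in WT, and at 0.26 without MGL KO replicate 1. All 4 overlapped between groups. For 3 of the 35 genes every library of MGL KO was above WT, and for 0 below, beside 2.72% and 3.3% of all tested genes. These were Aen, a nuclease of apoptosis (46.6 ± 3.73 and 38.0 ± 3.06 normalized CPM, adjusted p = 0.506), the death receptor gene Fas (11.9 ± 2.73 and 8.90 ± 1.56, adjusted p = 0.62) and Ei24 (67.1 ± 6.49 and 60.7 ± 2.35, adjusted p = 0.667), named after their values were seen. The log2 difference of Fas was 0.42, and 0.25 without MGL KO replicate 4, and that of Ei24 was 0.15, and 0.08 without MGL KO replicate 2. Gdf15 had the highest value, 1.03 (standard error 0.70, adjusted p = 0.689), which rested on MGL KO replicate 2 at 6.05 normalized CPM against at most 1.63 in all other libraries. Trp53, the gene of p53 itself, was at 54.3, 40.0, 53.2 and 47.2 normalized CPM in MGL KO and 60.8, 51.4, 55.4 and 52.1 in WT, or -0.17 ± 0.12 in log2 (standard error, adjusted p = 0.686), and -0.09 without MGL KO replicate 2.

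Of the other growth arrest and cell cycle genes, 64 were tested and 0 were called. An unadjusted p under 0.05 was reached by 7 of them, beside 8.65% of all tested genes. DESeq2 and the exact test on filtered genes called 2, Tob1 and Tob2, whereas limma-voom and the exact test on all genes called Tob1 alone. In this order, these tests called 137, 64, 25 and 42 over all genes. Tob1 and Tob2 encode antiproliferative proteins of the same family as BTG2. Tob1 was at 189, 205, 164 and 155 normalized CPM in MGL KO and at 111, 113, 123 and 105 in WT, a log2 difference of 0.66 ± 0.12 (standard error) at an adjusted p of 0.212. Tob2 was at 239.97, 213, 219 and 212 normalized CPM in MGL KO and at 107, 119, 107 and 176 in WT, a log2 difference of 0.80 ± 0.17 (standard error, adjusted p = 0.302). Neither gene overlapped between groups, like Cdkn1a, whereas Cdkn1b, which encodes the related inhibitor p27, was at -0.16 ± 0.09 in log2 (standard error, adjusted p = 0.651). Cdkn1c, for p57 of the same family, was at 0.45 ± 0.20 (standard error, adjusted p = 0.578), and both overlapped between groups. Cdkn2b, which encodes the CDK4 and CDK6 inhibitor p15, was at 2.56 ± 0.72 normalized CPM in MGL KO and 1.505 ± 0.45 in WT (adjusted p = 0.578), and these groups overlapped. Mdm4, the partner of MDM2 that blocks p53, was below every WT library in all MGL KO libraries, at 101, 68.3, 94.8 and 102 normalized CPM against 117, 112, 138 and 116. Its log2 fold change was -0.40 (standard error 0.14, adjusted p = 0.523). The counts of Mdm2 relative to Mdm4 were 0.777 to 1.35 in MGL KO and 0.532 to 0.581 in WT, a pair also chosen after the values were seen.

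Among 14 tested genes of the p53 family and its regulators the median log2 fold change was 0.05, and among 18 partners of p21 and the GADD45 proteins it was also 0.05. Both medians crossed 0 with single libraries left out, at -0.03 for the former without WT replicate 3 and -0.01 for the latter without MGL KO replicate 4. Of those partners, Map2k6, a kinase that activates p38, was at 5.24 ± 0.79 normalized CPM in MGL KO and 7.32 ± 0.64 in WT, or -0.48 ± 0.19 in log2 (standard error, adjusted p = 0.546), and its groups did not overlap. The highest values of this list were Ccna2 0.38, Ccne2 0.36 and Pcna 0.35, which were 0.12 without WT replicate 3 for Ccna2 and 0.21 and 0.14 without MGL KO replicate 2 for Ccne2 and Pcna. Cdk2 (-0.31) and Rb1 (-0.23) were among the lowest of the list. Of 20 proliferation genes, 18 had values above 0 with a median of 0.27, beside 7884 of the 14864 tested genes, and 0 were called or had an unadjusted p under 0.05. The median was 0.11, with 15 values above 0, without WT replicate 3, the library with the lowest sum of these genes, and 0.54 without WT replicate 1, the library with the highest. Top2a was at 66.8 ± 10.8 normalized CPM in MGL KO and 47.3 ± 21.6 in WT (SD, n = 4 each), so that the WT libraries spread more widely than the groups differed.

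**Figure D3:**
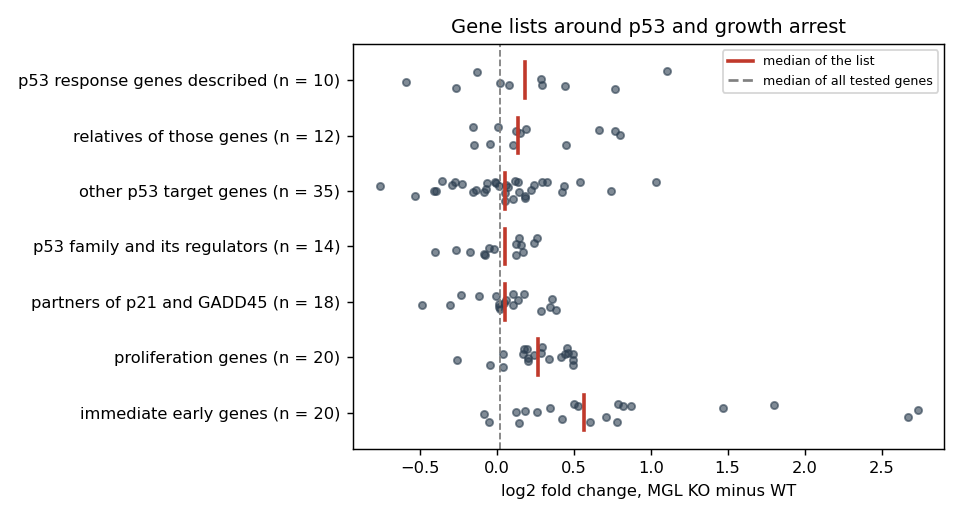
Log2 fold change (MGL KO minus WT) of every tested gene of the 10 genes described and of 6 further lists, with the median of each list as a red line and the median of all tested genes, 0.02, as a dashed line. The immediate early genes have the highest median, 0.57, and the 35 other p53 target genes a median of 0.05.

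The immediate early genes, which are induced soon after a stimulus without new protein synthesis, had a median log2 fold change of 0.57, the highest among the gene lists other than cell type markers. Of 20 such genes, 18 had values above 0 and 12 had an unadjusted p under 0.05, all higher in MGL KO. Over all tested genes, 7884 of 14864 had values above 0, and 4.35% were higher in MGL KO with an unadjusted p under 0.05. The list was chosen with earlier results of these data known. Dusp1, a phosphatase that switches off MAP kinases, was the 1 gene called, at a log2 fold change of 1.80 and an adjusted p of 0.0494. That call was lost with 7 of the 8 libraries left out in turn, all but MGL KO replicate 1 (adjusted p up to 0.222, log2 1.73 to 1.91). Without MGL KO replicate 1 the call was kept, at a log2 fold change of 1.56 and an adjusted p of 0.021. It was also lost without a filter (0.0562) and with the replicate block (0.502). DESeq2 called 6 genes of the list, the exact tests 4 and 3, and limma-voom 2, Dusp1 among them each time. In this order, these tests called 137, 64, 42 and 25 over all genes. Dusp1 and Fos are both in the authors' own list from these libraries, so neither is independent evidence. The sum of all 20 immediate early genes was 1671, 1300.2, 1036 and 1131 normalized CPM in MGL KO replicates 1 to 4. In WT replicates 1 to 4 this sum was 768, 899.7, 815 and 826. The groups did not overlap in this sum. In MGL KO it was highest in replicate 1, where Cdkn1a and Gadd45g were highest in replicate 2. In WT it was highest in replicate 2, as was Cdkn1a, where Gadd45g was highest in replicate 4. The part of the immediate early genes in the values of Cdkn1a and Gadd45g was not tested.

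**Figure D4:**
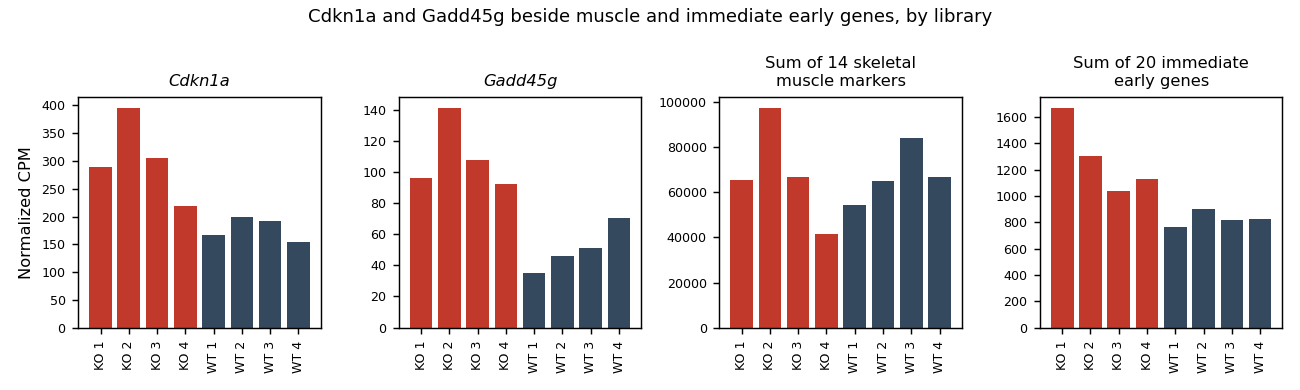
Normalized CPM per library of Cdkn1a, Gadd45g, the sum of 14 skeletal muscle markers and the sum of 20 immediate early genes, with MGL KO in red and WT in blue, each axis starting at 0. Both genes and the muscle sum are highest in MGL KO replicate 2, whereas the immediate early sum is highest in MGL KO replicate 1, at 1671.

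The genes with profiles most like those of Cdkn1a and Gadd45g over the 8 libraries were sought among all tested genes, by the distance between log2 CPM profiles scaled to a mean of 0 and an SD of 1. For Cdkn1a these were Gm15910 (distance 0.517), Elavl1 (0.531), Tnfrsf12a (0.583), Myod1 (0.602) and Chrna9 (0.603), where the median gene was at 3.83. Myod1, a transcription factor of muscle precursors, was at 33.9 ± 9.14 normalized CPM in MGL KO and 16.5 ± 3.30 in WT, and Tnfrsf12a, the receptor of the cytokine TWEAK, at 35.4 ± 11.8 and 16.2 ± 3.21. For Gadd45g the nearest were Gbf1 (0.582), Siah1a (0.611), Tmem267 (0.797) and Srf (0.811), with the median gene at 3.76. Among the 10 genes themselves, Mdm2 (1.52) and Gadd45g (1.55) were nearest to Cdkn1a, and Sesn1 (4.80) and Gadd45b (4.44) were farthest. These distances describe the same 8 libraries and carry no test.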

How the data were processed

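RNA-seq of esophagi from 4 MGL KO and 4 WT mice was analysed, with groups and replicate numbers taken from the sample labels. Per the study's methods and the submitters' processing notes, the authors selected poly(A) RNA, checked reads with FastQC 0.11.9, trimmed them with Cutadapt, aligned them to GRCm39 with STAR 2.7.10b and deposited raw counts per gene symbol. The counting tool, its annotation and its use of strand are not given in the sources used here.

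Genes were kept by filterByExpr (minimum count 10), scaled by TMM factors (0.82 to 1.11) and compared by the quasi-likelihood test of edgeR 4.0.16 in R 4.3.3, with Benjamini-Hochberg adjustment over all 14864 tested genes and a threshold of 0.05. Standard errors were taken from F as the estimate over its square root. The study's methods name the exact test, which was an alternative. At this depth 3 counts, the limit for a count of 0, equal 0.167 to 0.271 normalized CPM, which covers counting error only. Each of the 10 genes had at least 10 counts in every library, so none passed the filter through 1 group. Alternatives were both exact tests, DESeq2 1.42.0, limma-voom (limma 3.58.1) with quality weights, scaling by RLE or by library size, a filter that was dropped or set to 10 counts per library throughout, a replicate block, covariates for skeletal muscle or Y-linked genes, and removal of each library in turn.

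The genes and lists were chosen with earlier results of these data known. By the rule, genes named beside the 10 were Mgll, genes called in a list, genes among the 3 highest or 3 lowest log2 fold changes of a list, the 5 nearest profiles and defining markers. Bax was named outside it for its role, Cdkn1c, Aen, Fas and Ei24 after their values were seen, and some genes that the rule names are not reported here. Positions and merged exon lengths came from GENCODE M39 (GRCm39), and promoter windows from RefSeq (GRCm38.p6), where 9 of the 10 genes had one. Motifs were searched on both strands with no mismatch allowed: p53 elements and the CArG box by consensus, AP-1 (TGANTCA), CRE (TGACGTCA) and the E-box (CACGTG). The search of 5 kb windows was added after the data were seen. AP-1 and CArG motifs were in 0 windows of the 10 genes, beside 7.81% and 1.63% of all windows.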

Additional observations from a re-analysis of the deposited data

Results flagged for a closer look

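A library stood far from the other 3 of its group, by Dixon's criterion at the 95% level, in 16 of 126 groups of 4 values compared. A share of 1 in 20 would be 6.3. Many of the genes were chosen by their fold change, and all groups share the same libraries. The 6.3 is therefore not the number due to chance here, and nothing is read from it. Among the p53 response genes, Sesn1 had its low library in MGL KO replicate 2, at 57.8 normalized CPM where the others had at least 73.9, and Trp53inp1 was high in WT replicate 1 (91.5, others at most 27.1).

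MGL KO replicate 2 was also high in Gdf15 (6.05 normalized CPM, others at most 1.41) and Sesn3 (87.5, others at most 71.9). MGL KO replicate 1 was high in Fosb (15.4, others at most 2.53) and low in Aurka (11.4, others at least 14.1) and in the sum of the proliferation genes (390.3, others at least 468). MGL KO replicate 3 was low in Atr (8.45, others at least 12.1). WT replicate 3 was high in Mdm4 (138, others at most 117) and low in the sums of the p53 family and its regulators (725, others at least 771) and of basal squamous epithelium (4002, others at least 5533), and WT replicate 1 was low in Fos (5.30, others at least 9.52).

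MGL KO replicate 4 was high in the sums of immune cells (96.3, others at most 67.5), airway ciliated cells (1679, others at most 911) and airway secretory cells (11569, others at most 71.6). The secretory sum was also highest in WT replicate 2, at 3.88 against at most 1.83 in the other WT libraries.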

How the results depend on the processing

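The number of p53 response genes called, 0, was 1 in both exact tests and 2 with DESeq2 and with the skeletal muscle covariate, and 0 under the other 7 settings and with each library left out. The number of other growth arrest and cell cycle genes, 0, was 2 with DESeq2 and the filtered exact test and 1 with limma-voom, the unfiltered exact test and the skeletal muscle covariate. The number of other p53 target genes was 0 under all settings. Over all genes, 7 were called, against 137 with DESeq2, 64 and 42 in the exact tests on filtered and on all genes, 29 with the skeletal muscle covariate, 25 with limma-voom, 3 with the Y-linked covariate, 2 without a filter and with the replicate block, and 2 to 5 on removal of single libraries. For none of these counts was the cause tested. Gadd45a turned negative with limma-voom (-0.19), library size alone (-0.052), the replicate block (-0.027) and the Y-linked covariate (-0.22), and ranged from -0.25 to 0.17 with libraries left out. Trp53inp1 was 0.020 with the replicate block and ranged from -0.49 to 0.53 with libraries left out, and Ccng1 from -0.095 to 0.23. The other p53 response genes kept their direction in every setting. Same-numbered libraries deviated together at -0.14, -0.28, -0.14 and 0.08 (correlation over tested genes), so the pairing is in number only, and the block called 0 p53 response genes. Sesn2 and Gadd45a rest on the fewest counts.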
